A study of Mus musculus with 18 samples.

Results

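Titanium dioxide (TiO2) particles were set against no particles in macrophages that all received estradiol. The TiO2 plus estradiol group held 3 arrays of J774 cells, an established mouse macrophage line, given 10 µg of TiO2 per well of a 24-well plate together with 2 µg/mL of 17-β estradiol. The estradiol group held 3 arrays of the same cells given estradiol with no particles. Both groups were harvested after 24 h and were chosen by their labels, and together they make up 6 of the 18 arrays of the series. The other groups, also of 3 arrays each and at the same time, were talc plus estradiol, TiO2, talc and vehicle. The particle dose was the same in the first 3 of these, and vehicle held no particles. TiO2, talc and vehicle were without estradiol. All cells were kept in medium free of phenol red, a dye with weak estrogenic activity. They are 1 line in culture. No label ties an array to a culture of its own, and the spread behind each p-value is that between arrays, which may be technical.

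TiO2 is a pigment that is widely used as a poorly soluble comparison particle in studies of dust. Macrophages take up such particles through scavenger receptors and hold them in lysosomes. Particles that damage the lysosome can activate the NLRP3 inflammasome, which matures interleukin-1 beta, and reactive surfaces can induce antioxidant genes through the transcription factor NRF2. Estradiol acts through the nuclear receptors ESR1 and ESR2 and the membrane receptor GPER1, and in macrophages it is known to modulate inflammatory gene expression.

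Each gene was given the average of log2 intensity over its probe sets, and a difference is TiO2 plus estradiol minus estradiol on that log2 scale, given with its standard error (SE). Median intensities lay between 45.6 and 48.0 on the 18 arrays. The upper quartile was 233, 232 and 222 in TiO2 plus estradiol arrays and 241, 238 and 240 in estradiol arrays, and those of TiO2 plus estradiol were the lowest of all 18. Replicate 3 of TiO2 plus estradiol was the dimmest array. Some named values are given with and without it, and the others, Ifi44 and Napb among them, only with it. The labels number these arrays 16 to 18 and 4 to 6. If those numbers give an order of processing, it cannot be told apart from group. All 11 measured macrophage markers lay above the median level of all genes, up to percentile 99.9 for Cd68, a lysosomal membrane protein. Their mean log2 level was 10.00 in each TiO2 plus estradiol array, against 10.05 to 10.06 in estradiol arrays. Markers of fibroblasts, epithelium, T and NK cells, B cells, granulocytes, dendritic cells and endothelium had mean levels of 3.56 to 4.53 in TiO2 plus estradiol arrays and of 3.51 to 4.59 in estradiol arrays, and none of them lay above percentile 57.5.

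Adding TiO2 to estradiol-treated macrophages gave few differences that stood out from the spread between arrays. At an adjusted p under 0.05, 1 of 23102 genes passed (0.00433%), the long noncoding RNA gene D630033O11Rik, which was higher. No gene passed in the lower direction. At an unadjusted p under 0.05 there were 2059 genes (8.91%), 886 of them higher (3.84%) and 1173 lower (5.08%). For 3277 genes (14.2%) the 3 arrays of one group did not overlap with those of the other, 1333 of them higher (5.77%) and 1944 lower (8.41%).

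D630033O11Rik has no assigned function, and its 3 TiO2 plus estradiol arrays read 3.82, 3.99 and 3.88, against 3.09, 3.10 and 2.94 in estradiol arrays. All 3 lay above each of the other 15 arrays of the series, which ran from 2.83 to 3.54. The difference was 0.85 ± 0.12 (SE; limma adjusted p = 0.0389), a 1.80-fold higher intensity with a 95% interval of 1.52 to 2.14. Its level was low, at percentile 17.8 of all genes. Its 3 probe sets differed by 1.64, 1.04 and -0.13, so the third did not follow the others. In the cells without estradiol, TiO2 arrays read 3.18, 2.83 and 3.12 and vehicle arrays 3.46, 3.33 and 3.29, a difference of the opposite sign (-0.32 ± 0.12, adjusted p = 0.51). The test of the difference between both TiO2 effects gave 1.17 log2 units with an adjusted p of 0.0565. The call was lost without any 1 of the 6 arrays (adjusted p = 0.125 to 0.295).

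Most differences were small and most were bounded. The median absolute difference was 0.125 log2 units, and 23 genes differed by more than 1 unit, 4 of them above the median level. For 97.1% of all genes the 95% interval lay within a 2-fold change in either direction, and for 74.3% within 1.5-fold. Among genes above the median level, 98.9% had an interval within 2-fold. Arrays of different groups were about as far apart as arrays of the same group. The median absolute log2 difference per gene was 0.170 to 0.218 in the 9 pairs between groups, against 0.176 to 0.205 in the 3 pairs within TiO2 plus estradiol and 0.165 to 0.178 in the 3 pairs within estradiol.

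The direction of the differences moved with the level of the gene. Genes were put into 5 bins of equal size by their mean level, from bin 1, the dimmest, to bin 5. In bin 1 the median difference was 0.06 and 38.1% of genes were lower, whereas in bins 4 and 5 the medians were -0.08 and -0.07 and 70.7% and 69.8% of genes were lower. After quantile normalization the medians of bins 4 and 5 were -0.03 and -0.02, with 58.3% and 56.5% of genes lower. Without replicate 3 of TiO2 plus estradiol they were -0.07 and -0.05, with 69.0% and 68.4% lower. TiO2 against vehicle gave 0.02 and -0.01 in the same bins. Among all genes above the median level, 919 were lower and 178 higher at an unadjusted p under 0.05, a background against which the lower genes named here are to be read. The low upper quartiles of the TiO2 plus estradiol arrays moved with this lean, and their part in it was not tested.

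**Figure D1:**
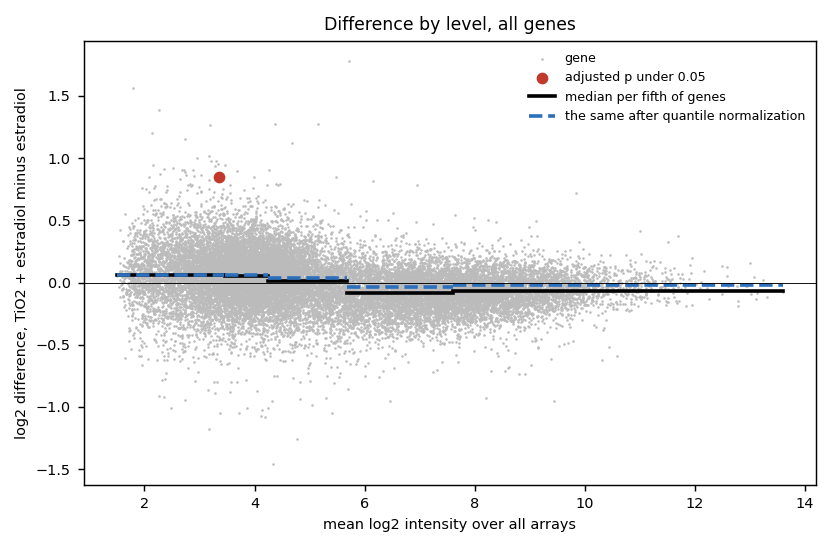
Log2 difference of each of 23102 genes (TiO2 plus estradiol minus estradiol, y axis) against its mean log2 intensity over all 18 arrays (x axis). Black lines give the median of each of 5 level bins and dashed blue lines the same after quantile normalization. The black line lies at 0.06 in the dimmest bin and at -0.07 in the brightest, and the red point is D630033O11Rik.

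Among genes above the median level whose arrays did not overlap and whose unadjusted p was under 0.01, 34 were higher and 215 lower. The 10 largest differences in each direction are described next. None of these 20 passed the test (adjusted p = 0.398 to 0.435), so they are values, not calls.

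Cpt1b, the muscle form of the carnitine palmitoyltransferase that admits fatty acids to mitochondria, had the largest positive difference of them. It read 6.87, 6.90 and 6.77 with TiO2 plus estradiol, against 4.44, 4.98 and 5.77 with estradiol, a difference of 1.78 ± 0.36 from a single probe set. The estradiol arrays were the scattered ones. In cells without estradiol the sign turned, with TiO2 arrays at 5.58, 5.38 and 4.88 against 6.70, 5.98 and 6.004 in vehicle arrays. Rprl3, which encodes an RNA of the RNase P family, read 10.15, 10.16 and 10.63 with TiO2 plus estradiol and 9.56, 9.41 and 9.80 with estradiol (0.72 ± 0.16). It was also higher in TiO2 than in vehicle arrays, by 0.52. Rab4b, a small GTPase of recycling endosomes, read 6.12, 5.98 and 5.78 with TiO2 plus estradiol and 5.28, 5.42 and 5.28 with estradiol (0.63 ± 0.18; 0.26 from the brightest probe set), and was 0.44 higher in TiO2 than in vehicle arrays. Akap5, an anchoring protein for protein kinase A, read 5.63, 5.82 and 5.67 against 5.18, 5.21 and 4.86 in estradiol arrays (0.62 ± 0.16), and all 5 of its probe sets were higher, the brightest by 0.25. It differed by only -0.05 between TiO2 and vehicle. The other 6 were Mfrp, Fam43b, Olfr884, Fgfbp3, the cartilage collagen chain Col9a3 and Gcsh, a carrier protein of glycine cleavage, with differences of 0.56 to 1.27. For Fgfbp3 the brightest probe set alone gave -0.06 and the median of its probe sets 0.84.

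On the lower side, Ifi44, an interferon-induced gene, read 6.12, 6.47 and 5.55 with TiO2 plus estradiol, against 6.94, 7.33 and 6.73 with estradiol. The difference was -0.95 ± 0.25, a ratio of 0.518 with a 95% interval of 0.358 to 0.748, and 9 of its 10 probe sets were lower. On other arrays, without estradiol, it read 5.997, 5.97 and 6.54 with TiO2 and 6.98, 7.24 and 7.49 with vehicle (-1.07 ± 0.25, adjusted p = 0.346). Havcr2, the inhibitory receptor TIM-3, read 5.75, 5.50 and 4.61 with TiO2 plus estradiol and 5.97, 6.11 and 6.06 with estradiol. Its difference of -0.76 ± 0.23 was -0.42 without replicate 3. In cells without estradiol Havcr2 read 5.20, 5.22 and 5.77 with TiO2 and 6.09, 6.32 and 6.43 with vehicle (-0.88 ± 0.23, adjusted p = 0.396). Both genes thus lay lower in all 3 TiO2 arrays than in every control array in either arm, although neither passed in either. In the estradiol arm the naming rule required this. Without estradiol, these were the 2 of the 10 lower genes that lay below all vehicle arrays. Of all genes, 12.4% did not overlap between TiO2 and vehicle, in either direction.

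Napb, a beta form of the SNAP proteins that take apart membrane fusion complexes, read 5.59, 5.74 and 5.02 with TiO2 plus estradiol and 6.08, 6.31 and 6.22 with estradiol. Its difference was -0.75 ± 0.16 with 12 of 13 probe sets lower, -0.24 from the brightest of them, and it was 0.01 between TiO2 and vehicle. Psme2, a subunit of the interferon-inducible proteasome activator PA28, read 4.99, 4.92 and 5.21 with TiO2 plus estradiol and 5.85, 6.03 and 6.04 with estradiol (-0.93 ± 0.25), but the median of its 3 probe sets gave -0.27. The remaining 6 were Pilrb2, Vmn2r33, Ier3ip1, the protease gene Prss53 and the zinc finger genes Zfp866 and Zfp984, at -1.05 to -0.73. In that order, the brightest probe set of each gave -0.64, -1.23, -0.06, -0.30, -0.30 and -0.45. Of the 10 higher genes 5 kept their sign in TiO2 against vehicle, and of the 10 lower genes 6 did.

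**Figure D2:**
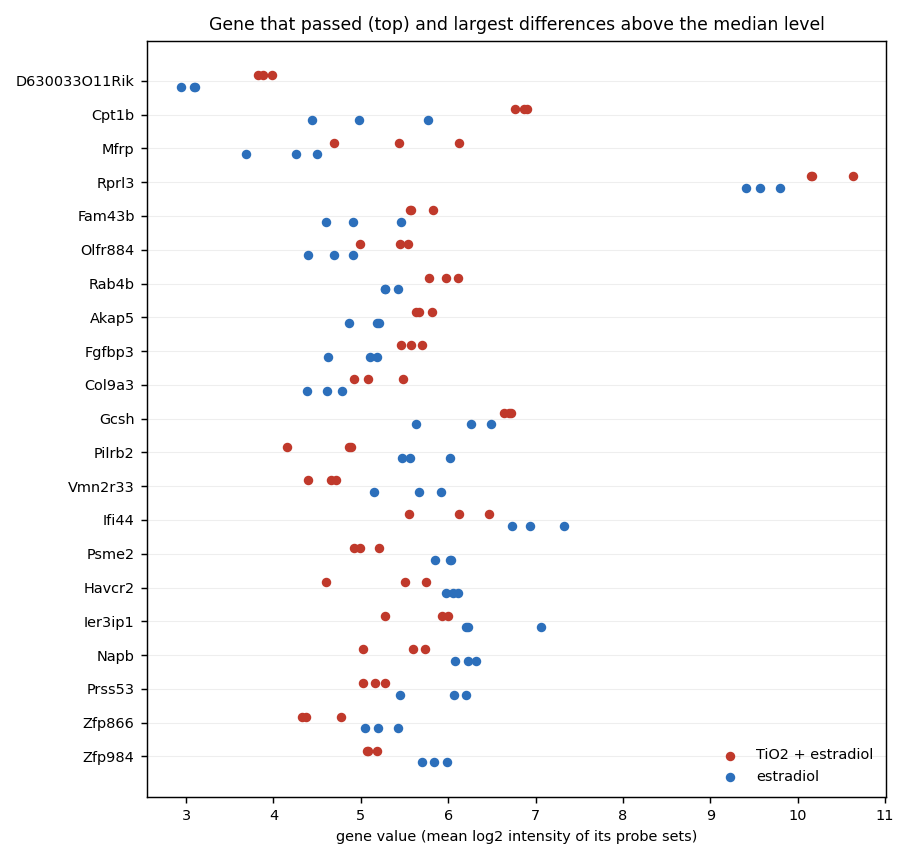
Log2 intensity (x axis) of D630033O11Rik, at the top, and of the 10 largest positive and 10 largest negative differences above the median level, with the 3 TiO2 plus estradiol arrays in red above the 3 estradiol arrays in blue for each gene. The groups do not overlap in any row, which is how the genes were chosen, and only the top gene passed the test.

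To see whether known responses of macrophages to particles moved, 29 lists of genes by function were read out, holding 656 measured genes. None of these genes passed the test. At an unadjusted p under 0.05 there were 42 (6.4%), beside 8.91% of all genes, and list medians ran from -0.18 to 0.05 around a median of -0.01 for all genes. In the same arm talc plus estradiol against estradiol, which shares the estradiol arrays, gave medians of -0.64 to 0.51 over these lists. The lists are read beside 2 backgrounds: 53.1% of all genes and 66.9% of genes above the median level were lower, and 5.08% and 7.96% were lower at an unadjusted p under 0.05. Single genes also depend on how probe sets are combined. Of the 190 genes covered by the naming rules, 56 took the other sign when only the brightest probe set was used and 27 when the median of probe sets was used. Where only 1 of these alternatives is quoted for a gene, the other can lie nearer the main value.

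Genes for taking up and holding the particle did not pass. Of 33 uptake and scavenger receptor genes, 24 were lower (72.7%) and 9 higher, with a median of -0.06, and 1 was lower (3.03%) at an unadjusted p under 0.05, so both shares lay near the background. That was Stab1, a scavenger receptor of modified lipoproteins, at 7.14, 7.18 and 6.96 with TiO2 plus estradiol and 7.31, 7.31 and 7.43 with estradiol (-0.26 ± 0.10, adjusted p = 0.513). Msr1, the class A scavenger receptor, and Marco, a related receptor that binds uncoated particles, were chosen for that role after their values were seen. Msr1 differed by -0.15 ± 0.11 and Marco by 0.14 ± 0.14. Of 31 lysosome genes 1 was lower at that threshold, and the median was -0.03. The abundant lysosomal proteases Ctsb and Ctsd differed by -0.02 ± 0.08 and -0.04 ± 0.09, with 95% intervals of -0.18 to 0.15 and of -0.24 to 0.16.

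The inflammasome and interleukin-1 list had 22 measured members, of which 18 were lower (81.8%) and 4 higher, with a median of -0.10, or of 0.00 from the brightest probe set of each gene. Nlrp3, the sensor of lysosomal damage, read 8.04, 7.81 and 8.14 with TiO2 plus estradiol and 8.27, 8.18 and 8.26 with estradiol. The groups did not overlap, and the difference of -0.24 ± 0.13 did not pass (adjusted p = 0.595). It was -0.03 from the median of its probe sets and -0.21 from the brightest. Il1b, the cytokine that the inflammasome matures, stood at percentile 35.3, with 4.05, 3.32 and 3.52 in TiO2 plus estradiol arrays and 3.80, 3.73 and 3.92 in estradiol arrays, which overlapped. Its difference of -0.18 ± 0.18 became 0.49 with the brightest probe set and -0.30 with the median of probe sets. Casp1, the protease of the complex, differed by -0.20 ± 0.20, with 0.21 from its brightest probe set and -0.07 without replicate 3, and Gsdmd, the pore-forming protein it cleaves, by 0.01 ± 0.09.

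Il18bp, a secreted inhibitor of interleukin-18, had the smallest p of that list. It read 4.78, 5.17 and 4.81 with TiO2 plus estradiol and 5.32, 5.31 and 5.30 with estradiol, a difference of -0.39 ± 0.13 (adjusted p = 0.428). Without estradiol TiO2 arrays were higher than vehicle arrays by 0.71 ± 0.13 (adjusted p = 0.226), and the test of the difference between the arms did not pass (adjusted p = 0.18). The brightest of its 8 probe sets gave 0.33 in place of -0.39, and their median gave -0.30.

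No cytokine, NF-kB or immediate early gene passed, and members lay on both sides of 0. The medians were 0.01 over 30 cytokine and chemokine genes, 0.02 over 25 NF-kB genes and 0.01 over 23 immediate early genes, and single members ran from -0.52 to 0.27, from -0.35 to 0.29 and from -0.20 to 0.32. Osm, the cytokine oncostatin M, read 6.41, 6.43 and 6.28 with TiO2 plus estradiol and 6.69, 6.57 and 6.83 with estradiol (-0.32 ± 0.11, adjusted p = 0.436). Ccl3, a macrophage chemokine that was among the brightest genes, read 11.88, 11.75 and 11.85 against 11.61, 11.66 and 11.80 in estradiol arrays, and the groups overlapped. Il27, a cytokine subunit at the low end of its list, read 4.77, 5.38 and 5.24 with TiO2 plus estradiol and 5.37, 5.97 and 5.63 with estradiol, which overlapped (-0.52 ± 0.24, adjusted p = 0.537). Cd83, a surface marker of activation, did not overlap, at 6.02, 6.01 and 6.15 against 6.203, 6.44 and 6.61 in estradiol arrays (-0.35 ± 0.13, adjusted p = 0.439), but its brightest probe set gave 0.21. Traf1, an NF-kB target, differed by 0.25 ± 0.11, with -0.17 from the median of its probe sets and 0.52 from the brightest. Atf3, a stress-induced transcription factor, differed by 0.01 ± 0.09 with a 95% interval of -0.18 to 0.20.

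No antioxidant or metal response gene passed, and the width of the intervals differed between genes. Of 26 measured NRF2 targets and antioxidant genes, 20 were lower (76.9%) and 6 higher, with a median of -0.05. Sqstm1, an autophagy receptor that NRF2 induces, read 10.67, 10.68 and 10.63 with TiO2 plus estradiol and 10.64, 10.70 and 10.64 with estradiol, and the 95% interval of its difference was -0.17 to 0.17. Abcc1, an exporter of glutathione conjugates, was lower in all 3 arrays, at 8.22, 8.42 and 8.20 against 8.62, 8.61 and 8.47 with estradiol (-0.29 ± 0.10, adjusted p = 0.433), but the median of its probe sets gave -0.08 and the brightest -0.09. Cat, which encodes catalase, read 10.58, 10.69 and 9.31 with TiO2 plus estradiol and 10.54, 10.88 and 10.94 with estradiol, and its difference of -0.59 ± 0.27 became -0.15 without replicate 3. Between TiO2 and vehicle Cat differed by -0.75 ± 0.27 (adjusted p = 0.498). Among the metallothioneins, which bind metal ions, Mt1 differed by 0.03 ± 0.09, Mt2 by 0.10 ± 0.12 and Mt3 by 0.34 ± 0.18, the last with a 95% interval of -0.03 to 0.72. None of the 18 members of the metal list had an unadjusted p under 0.05. The iron store gene Fth1, at percentile 99.98, read 13.05, 13.10 and 13.16 with TiO2 plus estradiol and 13.08, 13.05 and 13.04 with estradiol, and the groups overlapped.

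**Figure D3:**
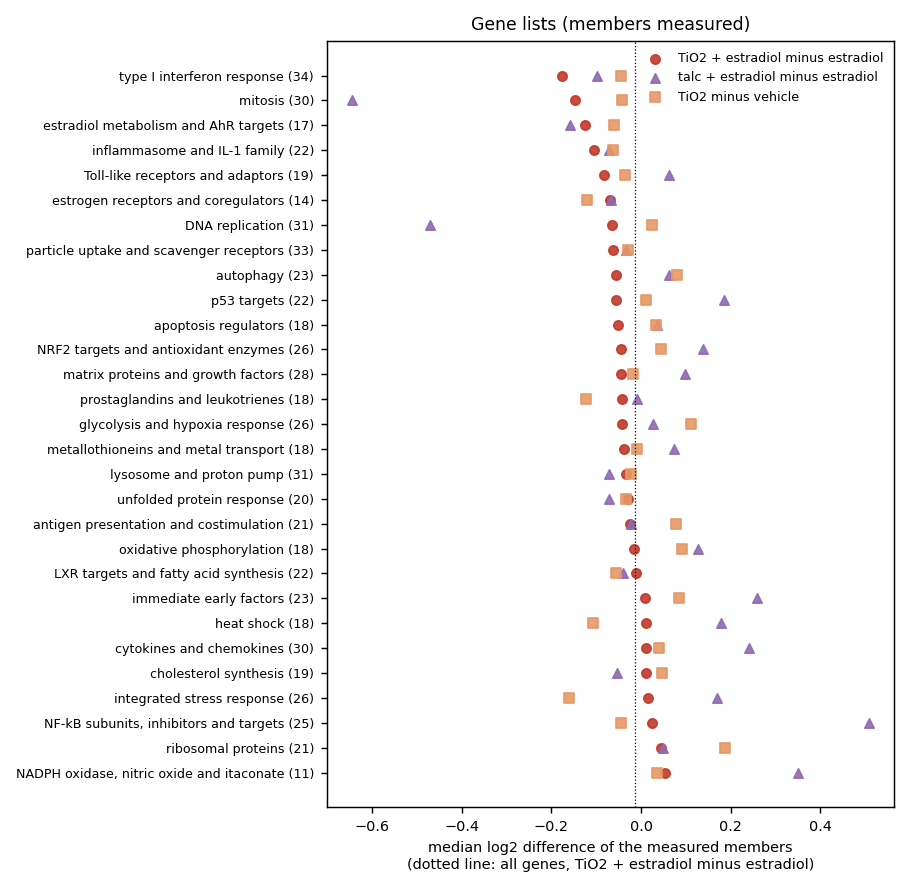
Median log2 difference of the measured members (x axis) of 29 gene lists (y axis, members in brackets) for TiO2 plus estradiol minus estradiol (red circles), talc plus estradiol minus estradiol (purple triangles) and TiO2 minus vehicle (orange squares). The red circles lie between -0.18 and 0.05 and the purple triangles between -0.64 and 0.51; red and purple share the estradiol arrays.

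The type I interferon list had the lowest median of the 29, at -0.18 over 34 measured genes, and this ran from -0.24 to -0.14 under the other settings and with single arrays left out. Of its members 26 were lower (76.5%) and 8 higher. At an unadjusted p under 0.05, 6 were lower (17.6%) and 2 higher (5.88%), and 0 passed. Beside these stood 5.08% and 3.84% of all genes, and 7.96% and 1.54% of genes above the median level. Usp18, which removes ISG15 from proteins and dampens the interferon receptor, read 5.40, 5.12 and 4.90 with TiO2 plus estradiol and 6.02, 5.85 and 5.58 with estradiol (-0.68 ± 0.19, adjusted p = 0.398). All 13 of its probe sets were lower. Stat2, a transcription factor of the pathway, read 7.91, 7.83 and 7.73 against 8.20, 8.12 and 8.02 in estradiol arrays (-0.29 ± 0.11, adjusted p = 0.462), with -0.07 from the median of its probe sets, whereas the receptor chain Ifnar1 differed by 0.02 ± 0.10. Ifi35 and Zbp1, the 2 higher members with an unadjusted p under 0.05, were named after their values were seen and differed by 0.31 ± 0.10 and 0.38 ± 0.15. Ifnb1, which encodes interferon beta itself, stood at percentile 5.79, near the floor of the scale.

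Usp18 differed by 0.09 between TiO2 and vehicle and Stat2 by -0.04. In that comparison the list had a median of -0.04, and 23 members were lower, 17 of them also lower in the estradiol arm. With 26 of 34 lower in the estradiol arm, about that many would be shared if the signs were unrelated between the arms. Among the 19 Toll-like receptor and adaptor genes, 17 were lower (89.5%) with a median of -0.08. At an unadjusted p under 0.05, 5 were lower (26.3%), beside 5.08% of all genes and 7.96% of those above the median level. One of them, Ly96, the partner of TLR4, was looked at after its values were seen and read 9.42, 9.60 and 7.31 with TiO2 plus estradiol and 9.42, 9.83 and 9.93 with estradiol, so only replicate 3 stood apart. Tlr7, an endosomal receptor for RNA, read 7.49, 7.36 and 7.26 with TiO2 plus estradiol and 7.77, 7.59 and 7.74 with estradiol (-0.33 ± 0.12, adjusted p = 0.464). The median of its 8 probe sets gave -0.08 and the brightest of them -0.40. Cd14, the lipopolysaccharide co-receptor, was higher, at 11.88, 11.92 and 12.12 against 11.77, 11.70 and 11.86 in estradiol arrays (0.19 ± 0.09, adjusted p = 0.545), and 0.12 was left without replicate 3.

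**Figure D4:**
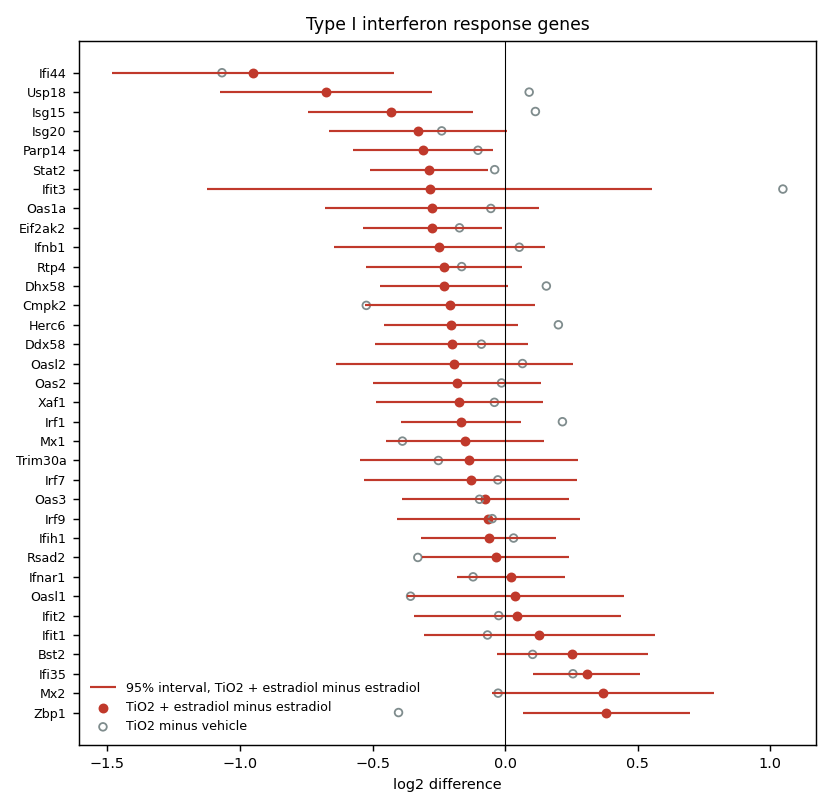
Log2 difference (x axis) of the 34 measured type I interferon response genes (y axis) for TiO2 plus estradiol minus estradiol (red, with 95% intervals) and TiO2 minus vehicle (open grey circles). The red points of 26 genes lie below 0, and 6 of their intervals lie below 0 entirely.

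The receptors and cofactors of estradiol itself also held no gene that passed. Ncoa2, a coactivator of nuclear receptors, had the smallest p of the 14 measured. It read 8.84, 8.45 and 8.28 with TiO2 plus estradiol and 9.01, 8.99 and 8.91 with estradiol, a difference of -0.45 ± 0.12 (adjusted p = 0.398), and 20 of its 21 probe sets were lower. The difference was -0.33 without replicate 3, and the brightest probe set gave -0.17. TiO2 and vehicle differed by 0.02. Esr1, the main estrogen receptor, read 5.92, 5.45 and 5.33 with TiO2 plus estradiol and 5.89, 6.07 and 5.81 with estradiol, which overlapped (-0.35 ± 0.15, adjusted p = 0.518; -0.23 without replicate 3). Esr2 differed by 0.11 ± 0.14 and Gper1 by -0.03 ± 0.11. Pgr and Greb1, classic targets of the estrogen receptor in breast and uterus, stood at percentiles 22.1 and 31.7 and differed by 0.04 ± 0.15 and -0.02 ± 0.17, although the brightest probe set of Pgr gave 1.38. Of the 17 genes of estradiol metabolism and the aryl hydrocarbon receptor pathway, 12 were lower (70.6%) with a median of -0.12. The receptor gene Ahr differed by -0.28 ± 0.13 (adjusted p = 0.548), with 0.33 from its brightest probe set and -0.17 without replicate 3.

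No gene of cell division passed. Of the 30 measured mitosis genes 26 were lower (86.7%), beside 66.9% of genes above the median level, at a median of -0.15. At an unadjusted p under 0.05 there were 2 lower, Hmmr and Tpx2 (6.67%), beside 7.96%. The mean log2 level of the mitosis genes was 9.08, 9.07 and 8.98 in TiO2 plus estradiol arrays, against 9.19, 9.12 and 9.15 in estradiol arrays. The groups did not overlap, but neither did they for the macrophage markers (9.997 to 10.003 against 10.054 to 10.059). The median of the mitosis list was -0.05 without replicate 3, -0.10 after quantile normalization and -0.05 from the brightest probe sets. Hmmr, a spindle-associated protein, read 7.82, 7.72 and 7.29 with TiO2 plus estradiol and 7.92, 7.99 and 8.06 with estradiol (-0.38 ± 0.14, adjusted p = 0.473), and -0.22 was left without replicate 3. Over 31 DNA replication genes the median was -0.06. Pola1, the catalytic subunit of DNA polymerase alpha, read 7.17, 7.33 and 7.29 against 7.69, 7.66 and 7.47 in estradiol arrays (-0.34 ± 0.12, adjusted p = 0.436), but its brightest probe set gave 0.09. Ppargc1a, a coactivator of mitochondrial genes, read 2.68, 2.64 and 2.52 with TiO2 plus estradiol and 2.93, 3.29 and 3.54 with estradiol (-0.64 ± 0.16, adjusted p = 0.398) at a low level, percentile 10.4.

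No stress, death or metabolic gene passed. Of 18 apoptosis regulators 14 were lower (77.8%) with a median of -0.05, of 22 p53 targets 15 were lower (68.2%), and of 26 glycolysis and hypoxia genes 18 were lower (69.2%). Bak1, which permeabilises the outer mitochondrial membrane, read 8.45, 8.51 and 8.69 with TiO2 plus estradiol and 8.84, 8.85 and 8.91 with estradiol (-0.32 ± 0.13, adjusted p = 0.509). Casp8, the initiator caspase of death receptors, read 9.53, 9.81 and 8.39 against 9.45, 9.94 and 9.82 in estradiol arrays, and the groups overlapped. Its difference of -0.49 ± 0.26 was -0.07 without replicate 3. Between TiO2 and vehicle Casp8 differed by -0.58 ± 0.26 (adjusted p = 0.587). Dnajc3, a co-chaperone that inhibits the kinase PERK, had all 13 probe sets lower and read 8.68, 8.54 and 8.65 with TiO2 plus estradiol and 8.90, 8.86 and 8.83 with estradiol (-0.24 ± 0.10, adjusted p = 0.512). Nbr1, an autophagy receptor, differed by -0.35 ± 0.14 with 23 of 26 probe sets lower, but the brightest gave 0.01. Arg1, the arginase that competes with nitric oxide synthase for arginine, read 4.30, 4.35 and 4.35 against 3.88, 4.15 and 4.04 in estradiol arrays and did not overlap (0.31 ± 0.14, adjusted p = 0.528), but its brightest probe set gave -0.05.

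Whether estradiol altered the response to TiO2 was asked by the interaction test. No gene passed (0%), with 1860 at an unadjusted p under 0.05 (8.05%), 883 positive (3.82%) and 977 negative (4.23%). TiO2 against vehicle itself gave 0 passing genes (0%) and 1886 at an unadjusted p under 0.05 (8.16%), 896 higher (3.88%) and 990 lower (4.29%), on arrays that the estradiol comparison does not use. The median absolute difference there was 0.119, close to the 0.125 with estradiol. Interaction differences had a median SE of 0.213, and for 87.3% of genes their 95% interval lay within 2-fold. Those intervals are not adjusted for the number of genes and do not give the smallest difference that the test could call. Interaction differences of 1.17 for D630033O11Rik and 2.73 for Cpt1b did not pass (limma adjusted p = 0.0565 and 0.215). Differences between the arms may thus have been missed with these arrays.

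The direct comparison of both particles within the estradiol arm differed in scale. TiO2 plus estradiol against talc plus estradiol gave 2201 passing genes (9.53%), 662 higher (2.87%) and 1539 lower (6.66%). At an unadjusted p under 0.05 there were 5429 (23.5%), 2190 of them higher (9.48%). Talc plus estradiol against estradiol, which shares the estradiol arrays with the TiO2 comparison, gave 1647 passing genes (7.13%), 953 higher (4.13%) and 694 lower, and 2000 lower at an unadjusted p under 0.05 (8.66%). The split depends on the processing: 30.1% of calls were higher as tested, 61.2% with the brightest probe set per gene, 41.7% with each probe set on its own, 40.1% after quantile normalization and 15.9% after array medians were subtracted. Of 25 NF-kB genes 18 were lower with TiO2 than with talc and 0 higher, and of 30 cytokine genes 9 were lower. Mitosis genes went the other way, with 21 of 30 higher and 0 lower, as did 17 of 31 DNA replication genes.

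Osm read 6.41, 6.43 and 6.28 with TiO2 plus estradiol, against 7.85, 7.56 and 7.87 with talc plus estradiol. It was 1.39 log2 units lower with TiO2 than with talc (adjusted p = 3.25e-06). Sqstm1 read 10.67, 10.68 and 10.63 against 11.33, 11.32 and 11.28 with talc plus estradiol, a difference of -0.65 (adjusted p = 0.00015). Abcc1 differed by -0.70 (adjusted p = 0.000354) and Ccl3 by -0.49 (adjusted p = 0.00424). Tgfbi, a matrix protein induced by transforming growth factor beta, read 8.16, 8.29 and 8.25 with TiO2 plus estradiol and 6.21, 6.02 and 6.26 with talc plus estradiol, a difference of 2.07 (adjusted p = 8.11e-09). Ptgs2, the inducible cyclooxygenase, Fos, an immediate early factor, and Cxcl2, a neutrophil chemokine, were picked after their values were seen. Relative to talc plus estradiol they differed by -2.13, -1.93 and -1.66 (adjusted p = 1.24e-05, 2.42e-06 and 2.42e-06). Relative to estradiol TiO2 gave 0.29 ± 0.20, 0.03 ± 0.15 and -0.03 ± 0.13 for them, with 95% intervals of -0.14 to 0.71, -0.29 to 0.34 and -0.31 to 0.24. Against estradiol alone Tgfbi differed by -0.18 ± 0.10 with TiO2 and by -2.25 with talc. Talc plus estradiol minus estradiol was 1.06 for Osm, 0.65 for Sqstm1, 0.41 for Abcc1 and 0.63 for Ccl3. For these genes TiO2 plus estradiol minus estradiol was -0.32, 0.0009, -0.29 and 0.14. Ifi44 and Havcr2 did not separate the particles, with differences of -0.16 (adjusted p = 0.756) and 0.13 (adjusted p = 0.786). Against estradiol alone, talc gave -0.79 for Ifi44 and -0.90 for Havcr2, on the same estradiol arrays as the TiO2 values.

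Averaging over probe sets can hide a change in part of a gene, so each of 233753 probe sets was also tested on its own. A single one passed, in Dnajc10, which encodes a disulfide reductase of the endoplasmic reticulum; it was singled out after its values were seen. It read 6.54, 6.07 and 6.24 with TiO2 plus estradiol and 8.10, 7.92 and 8.07 with estradiol, and fell by 1.74 ± 0.18 log2 units (SE, adjusted p = 0.0341). The other 15 arrays of the series lay between 7.31 and 8.35, all above the 3 TiO2 plus estradiol arrays. The other 18 probe sets of Dnajc10 differed by -1.12 to 0.26 with a median of -0.01, and the gene as a whole by -0.19 ± 0.11 (adjusted p = 0.654). Between TiO2 and vehicle the same probe set differed by -0.27.

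**Figure D5:**
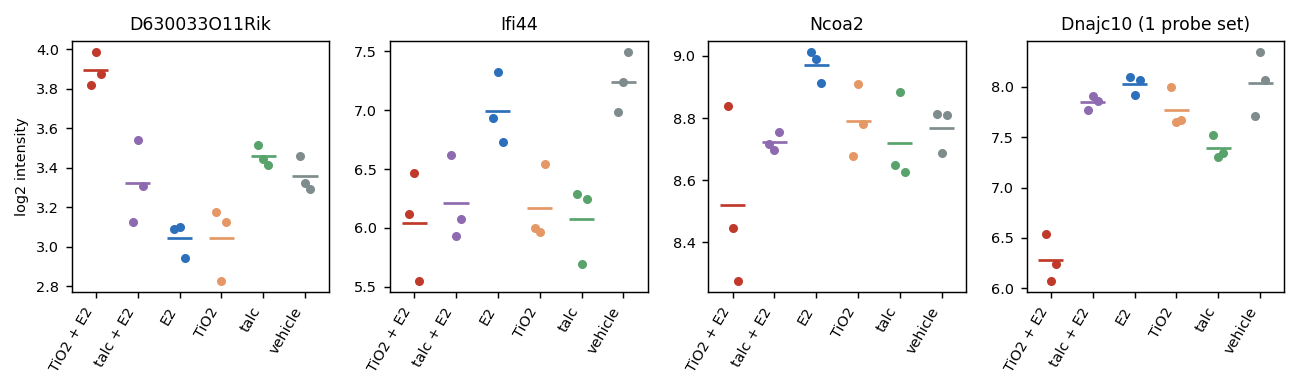
Log2 intensity (y axis) on the 18 arrays for D630033O11Rik, Ifi44, Ncoa2 and the single Dnajc10 probe set, by group (x axis; E2 stands for estradiol), with 1 point per array and a bar at the mean of 3. The TiO2 plus estradiol arrays stand apart from the other 15 for D630033O11Rik and the Dnajc10 probe set, whereas Ifi44 is low in the particle groups of both arms.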

How the data were processed

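Total RNA was measured on Affymetrix arrays, 3 per group. The deposited values are 1 linear intensity per probe set and array, made with RMA per the submitters' processing notes; its version, the level of summary and the step back from the log2 scale are not given in the sources used here. Raw array files were not used here. Log2 was taken without a pseudocount. Probe sets with a single gene symbol (233753 of 269751) were averaged per gene, giving 23102 genes, with a median of 8 probe sets each; 5106 with several symbols and 30892 with none entered no gene. Older symbols numbering 2247 were updated through the RefSeq gene table. No gene was filtered out.

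All 18 arrays entered 1 limma 3.58.1 model (R 4.3.3) that holds a coefficient for every group, giving 12 residual degrees of freedom. Tests were two-sided, with Benjamini-Hochberg adjustment over all genes of a contrast. The tests were tested on simulated data. The number of arrays limits the precision, with a median SE of 0.151. Named genes are those that passed; the 10 largest differences each way above the median level with unadjusted p under 0.01 and arrays that do not overlap, without symbols of clones, predicted genes, microRNAs and small nuclear and nucleolar RNAs, a filter by name that Rprl3 is not caught by; in each list the 2 members with the smallest p and the 2 brightest; and the estrogen receptor and inflammasome lists with the metallothionein genes. Others are marked as chosen later. The comparison, lists and rules were chosen with earlier results of these data known. The alternatives were other gene summaries, normalizations, variance models and array sets. The by-level medians after quantile normalization and without replicate 3 of TiO2 plus estradiol were added after the data were seen.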

Additional observations from a re-analysis of the deposited data

How the results depend on the processing

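The single passing gene of TiO2 plus estradiol against estradiol became 0 with the brightest probe set per gene, the median of probe sets, array medians subtracted, an intensity trend with robust variance, or only the arrays compared, and 0 to 0 with single arrays left out. It was 1 with quantile normalization and with array weights, again D630033O11Rik. Genes above the median level alone gave another 1, Ufsp1, at a difference of -0.62 log2 units (adjusted p = 0.0318, against 0.116 over all genes). Unadjusted counts ran from 1602, without replicate 3 of TiO2 plus estradiol, to 2341, without its replicate 1, over the gene-level settings that kept all genes. Their split of 886 higher and 1173 lower became 1108 and 794 after quantile normalization, 1067 and 688 with the brightest probe set, 818 and 784 without replicate 3, and 667 and 1488 with array medians subtracted. TiO2 against vehicle gave 1 among genes above the median level, 1 with array medians subtracted, 2 with trend and robust variance, and 0 to 1 with single arrays left out. Gpr183 was called under the first 3 of these settings, at 0.62, 0.64 and 0.62 log2 units (limma adjusted p = 0.0089, 0.0431 and 0.00642). Its difference in TiO2 plus estradiol against estradiol was 0.02. The interaction gave 1 after quantile normalization, D630033O11Rik at 1.16 log2 units (limma adjusted p = 0.0491), and 0 to 4 with single arrays left out. The 4 came without TiO2 replicate 2 and held D630033O11Rik again, at 1.06 (limma adjusted p = 0.0472). TiO2 plus estradiol against talc plus estradiol gave 1248 with the brightest probe set, 1183 with the median of probe sets, 4010 with each probe set on its own, 812 with only the arrays compared, and 1221 to 1738 with single arrays left out. The causes were not tested. Of 190 genes in the naming rules, the sign turned for 56 with the brightest probe set, 27 with the median of probe sets, 12 with array medians subtracted and 9 after quantile normalization. No paired analysis was possible because the labels pair no arrays and the replicate numbers were assigned here. The 3 arrays a group limit what could be called: the median SE of 0.151 leaves small differences undetectable.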
